A study of Mus musculus with 8 samples.

Results

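Collagen genes were followed in YFP+ and YFP- stromal cells of the mouse small intestine. The members are the rows of the deposited count table whose gene name is Col, digits, a and digits and nothing else, which took 44 of 53801 genes. By textbook class they comprise 11 fibrillar, 9 network-forming, 6 beaded-filament, 9 FACIT, 2 multiplexin and 4 transmembrane collagen genes. Col7a1 of the anchoring fibril and 2 others, Col26a1 and Col28a1, complete the 44. The cells lacked CD45, found on haematopoietic cells, and CD31, found on endothelium. Flow cytometry divided them by YFP fluorescence into a YFP+ and a YFP- fraction, each with 4 libraries, and all 8 libraries came from mice named LTβR-YFP after the lymphotoxin beta receptor. The sources used here do not say how YFP is driven in these mice, how old they were or whether animals were pooled. Nor is it stated that each library is a separate animal, and the p-values thus describe only how these samples spread, which may be technical. The sign of YFP in the title of each of the 8 samples is the reverse of that in its description and genotype. YFP+ and YFP- here mean the libraries so named by description and genotype, and if the titles are the correct ones each direction is the reverse.

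Collagens are secreted or membrane-bound proteins built from 3 chains wound into a triple helix. Fibrillar collagens form the banded fibres of connective tissue, and FACITs sit on the surface of those fibres. Network collagens and multiplexins belong to basement membranes and similar sheets, and type VI collagen forms beaded microfibrils around cells. In the gut wall, fibroblasts and other mesenchymal cells make most of this matrix, with basement membrane under the epithelium and around vessels, muscle and nerve.

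The 4 YFP+ libraries held 23404630 to 29829232 counts each, and the 4 YFP- libraries 23272858 to 28688906. Collagen genes took 5.65 ± 0.313% of all counts in YFP+, against 5.73 ± 0.390% in YFP- (mean ± SD of 4 libraries), a difference below the spread between libraries. The 6 fibroblast markers summed to 6460 to 7000 CPM (TMM-scaled counts per 1e6 counts) in YFP+ libraries and to 7230 to 8700 CPM in YFP- libraries. Dcn made up most of these sums, with 3840 ± 162 CPM in YFP+ and 4810 ± 469 CPM in YFP-. Of the 6, Dcn and Lum fell in YFP+, 2 genes, beside 3.34% of all tested genes called lower. Pdgfra, Dpt, Pdpn and Thy1 did not pass the test. Thy1, also a fibroblast marker, reached at most 0.559 CPM in YFP+ and 2.34 CPM in YFP-. Haematopoietic markers summed to 41.7 to 340 CPM in YFP+ and 84.1 to 302 CPM in YFP-, and endothelial markers to 39.1 to 52.1 CPM in YFP+ and 59.6 to 90.0 CPM in YFP-. Igha and Jchain made up most of the haematopoietic sums, while Ptprc averaged 2.29 CPM in YFP+ and 2.38 CPM in YFP-. Tek made up most of the endothelial sums, while Pecam1 averaged 4.66 CPM in YFP+ and 7.46 CPM in YFP-.

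The collagen transcripts differed in both directions. YFP+ libraries held more RNA for the type VI chains Col6a4, Col6a5 and Col6a2, for Col18a1 and for Col22a1. They held less RNA for the type VIII chains Col8a1 and Col8a2, for Col4a4, Col14a1, Col20a1, Col11a1 and Col28a1. Of the 44 members, 39 passed the expression filter, and edgeR's quasi-likelihood test with Benjamini-Hochberg adjustment over all 16354 tested genes called 5 higher and 7 lower at an adjusted p under 0.05. Over all tested genes 0.917% were called higher and 3.34% lower, against 12.8% and 17.9% of the tested collagen genes. Among genes of at least 10 CPM on average, 8 of 29 collagen genes were called, beside 5.46% of all such genes. The median log2 fold change was -0.10 over the tested collagen genes and 0.00 over all tested genes. In bulk samples of this kind, fewer cells of a type and less RNA per cell cannot be told apart.

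Libraries with the same replicate number deviated together, so the fit was repeated with that number as a block. It called 12 collagen genes higher and 14 lower, beside 3.65% and 7.85% of all tested genes, and it included all 12 genes of the fit without the block. With no block, DESeq2 also called Col24a1, Col27a1, Col4a1, Col6a1 and Col4a3, and edgeR with no expression filter called these 5 and Col1a1 and Col9a3. Over all tested genes, DESeq2 with no block called 1.45% higher and 4.38% lower, and edgeR with no filter 1% and 3.03%. Of the tested members, 7 were higher and 10 lower with no overlap between the 4 YFP+ and the 4 YFP- libraries, against 3.78% and 5.86% of all tested genes. In all 4 same-numbered pairs, 12 tested members were higher and 17 lower, beside 14% and 16.2% of all tested genes. The authors' deposited table gives 12 collagen genes higher and 12 lower at an adjusted p under 0.05, and all 24 were also called in the blocked fit. That table rests on the same counts, and its values nearly equal those of DESeq2 with the block. For Col6a5 the adjusted p was 9.09e-62 in the deposited table and 9.15e-62 in DESeq2 with the block. The overlap is therefore not independent support. DESeq2 with the block called 2.75% of all tested genes higher and 6.56% lower.

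**Figure D1:**
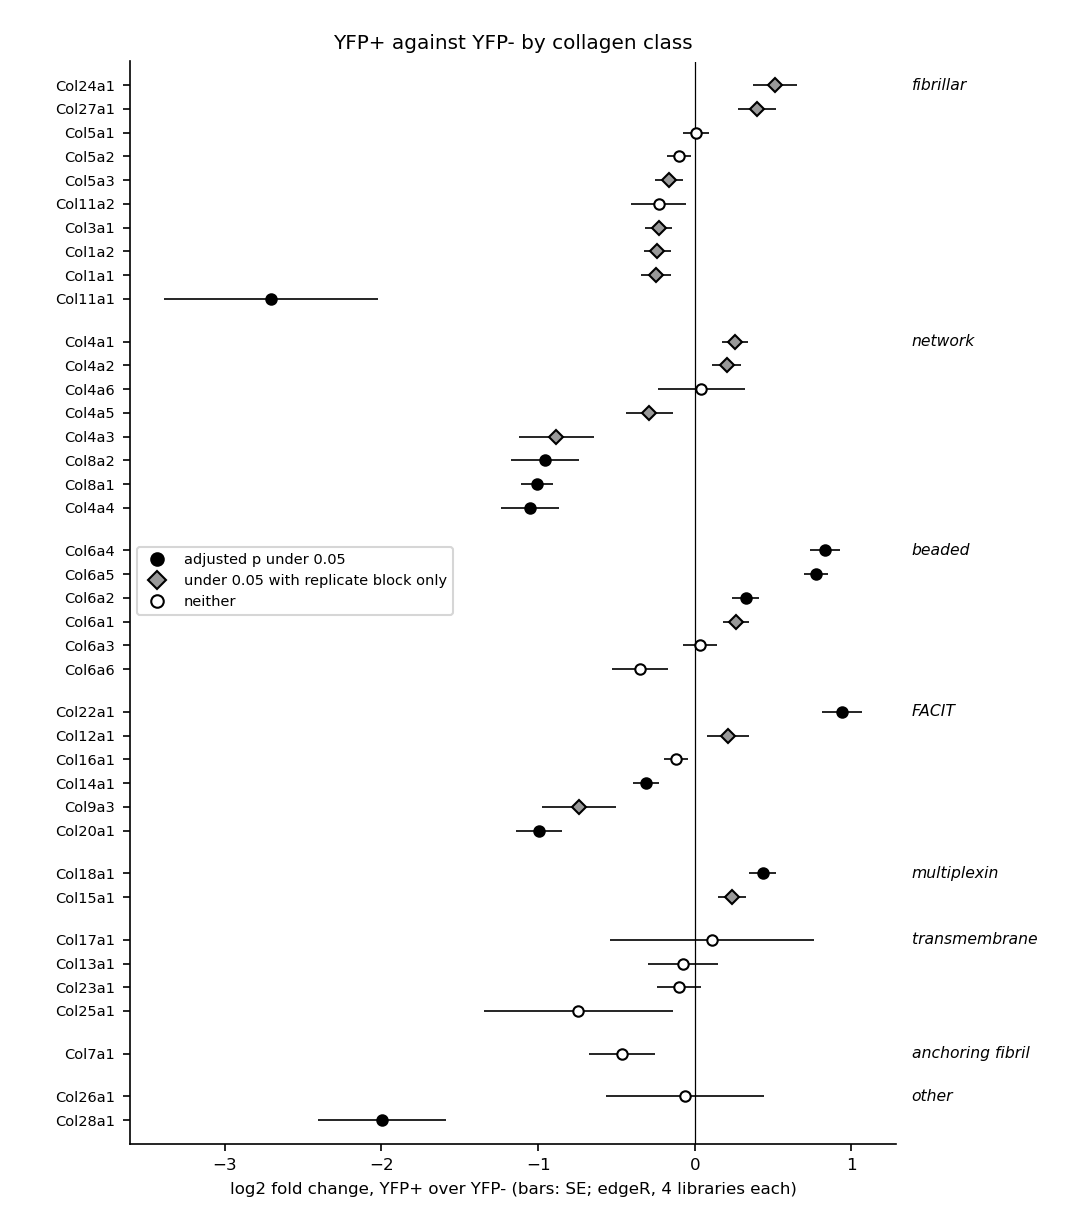
Log2 fold change of each tested collagen gene, YFP+ over YFP-, from edgeR without the block, arranged by class (x axis, log2 units; bars, SE; 4 libraries per group). Filled circles mark adjusted p under 0.05 and grey diamonds those under 0.05 only with the replicate block. Col22a1 at 0.94 and Col6a4 at 0.83 lie farthest to the right, and Col11a1 at -2.704 and Col28a1 at -1.995 farthest to the left.

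Levels were set on a per-length scale, as CPM per kilobase of the union of annotated exons, to compare genes with each other. Col3a1 stood first with 1635 CPM per kilobase in YFP+ and 1918 in YFP-, followed by Col1a1 with 1288 in YFP+ and 1531 in YFP-. Both gaps held in all 8 libraries. Col6a1, Col1a2, Col6a2 and Col4a1 came next, with means of 381 to 687 CPM per kilobase in YFP+ and 319 to 594 in YFP-. Col6a1 lay above Col1a2 in 5 of 8 libraries, and the order depended on the group. In YFP+ they were apart, at 650 to 750 CPM per kilobase for Col6a1 and 464 to 526 for Col1a2. In YFP- they overlapped, at 529 to 632 and 545 to 653. Col4a1 likewise lay above Col14a1 in YFP+ (357 to 406 against 249 to 278) and overlapped it in YFP- (289 to 348 against 303 to 357). Col14a1 averaged 263 against 292 for Col6a3 in YFP+, and 327 against 286 in YFP-. With the length of the longest coding transcript in place of the exon union, chosen after seeing that Col1a2 has 12.4 kb of exon union and a 5.35 kb coding transcript, Col1a2 moved up to the third place and Col6a2 to the fourth. At the other end, Col2a1, Col9a1, Col9a2, Col10a1 and Col19a1 had 17 to 86 counts over all 8 libraries, no more than 24 in any 1 library, and were not tested.

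**Figure D2:**
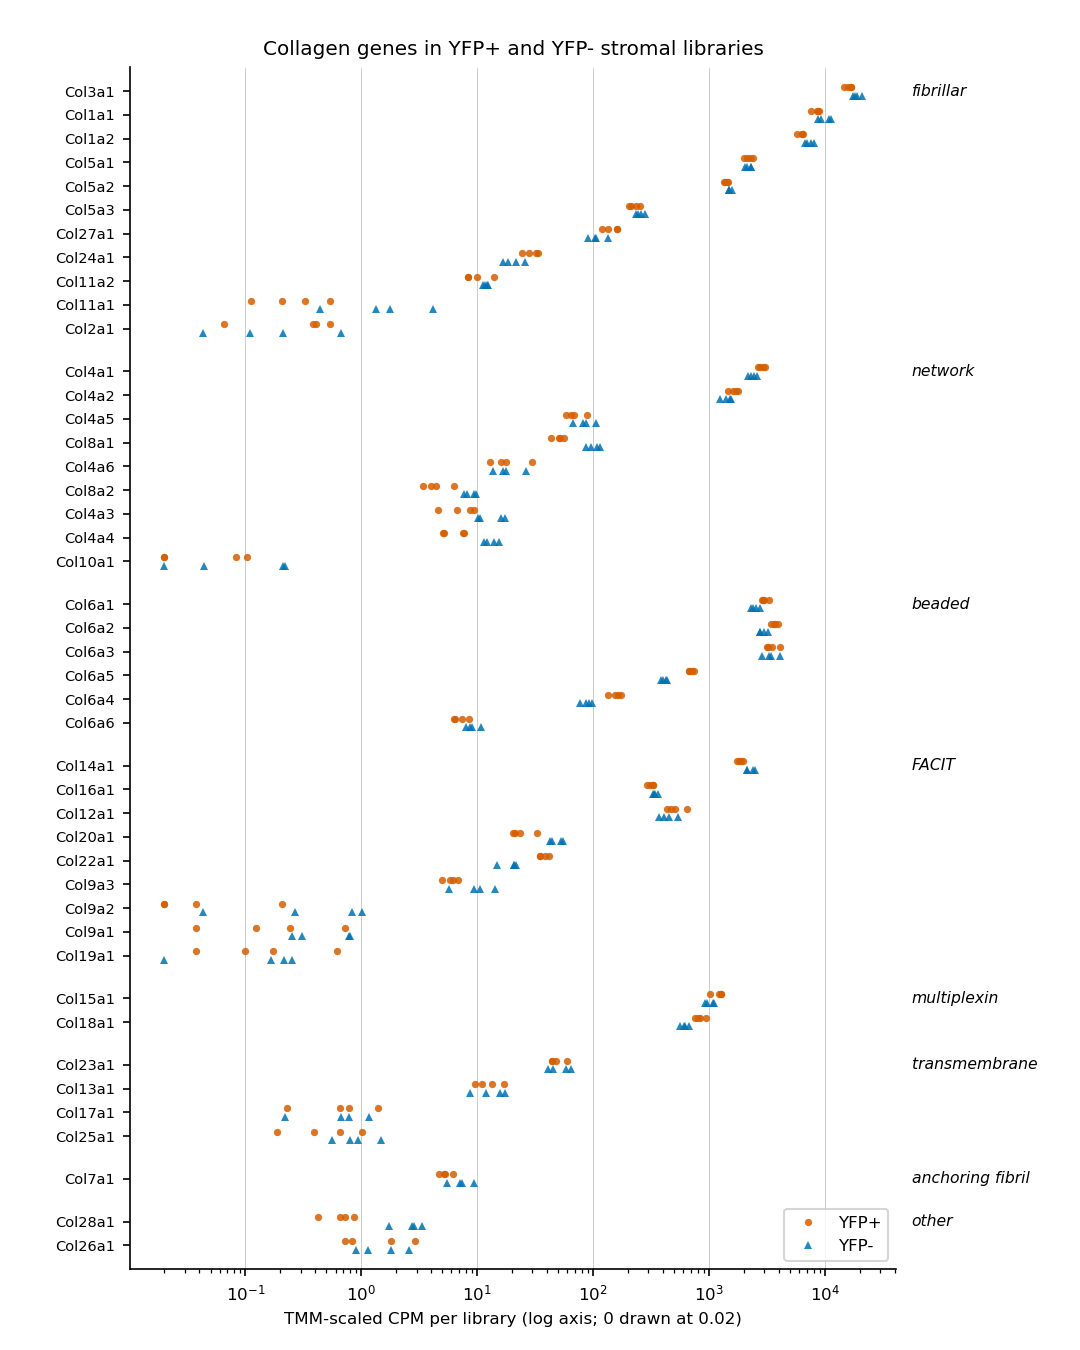
TMM-scaled CPM of all 44 collagen genes in each library, by class (x axis, log scale; circles, YFP+; triangles, YFP-; a value of 0 is drawn at 0.02). Levels span from Col3a1 at 14756 CPM or more to genes at 0 in some libraries, and Col6a4, Col6a5, Col8a1, Col20a1 and Col22a1 show separated groups.

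The makeup of the collagen counts differed between the fractions while their total differed by less than its spread. Fibrillar genes made up 62.9 ± 1.41% of collagen counts in YFP+ and 68.8 ± 1.07% in YFP-. Beaded genes made up 19.97 ± 0.961% in YFP+ and 15.96 ± 0.793% in YFP-, and multiplexins 3.67 ± 0.202% in YFP+ and 2.78 ± 0.0498% in YFP-. For these 3 classes the 4 YFP+ libraries did not overlap the 4 YFP- libraries. Network genes took 8.42 ± 0.748% in YFP+ and 6.92 ± 0.618% in YFP-, with overlapping libraries. FACITs took 4.96 ± 0.0864% in YFP+, against 5.39 ± 0.259% in YFP- (mean ± SD of 4 libraries throughout), again with no overlap. Col1a1, Col1a2 and Col3a1 alone held 55.6 ± 1.49% of collagen counts in YFP+ and 61.8 ± 1.09% in YFP-. These shares add to a fixed total, so a higher share of a class goes with a lower share of another, and no test was made of them. As percent of all counts, fibrillar genes overlapped, with 3.22 to 3.76% in YFP+ and 3.68 to 4.29% in YFP-. FACITs also overlapped on that scale, with 0.255 to 0.296% in YFP+ and 0.282 to 0.324% in YFP-. Network genes did not, with 0.448 to 0.502% in YFP+ and 0.366 to 0.420% in YFP-. Beaded genes and multiplexins stayed apart on both scales.

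**Figure D3:**
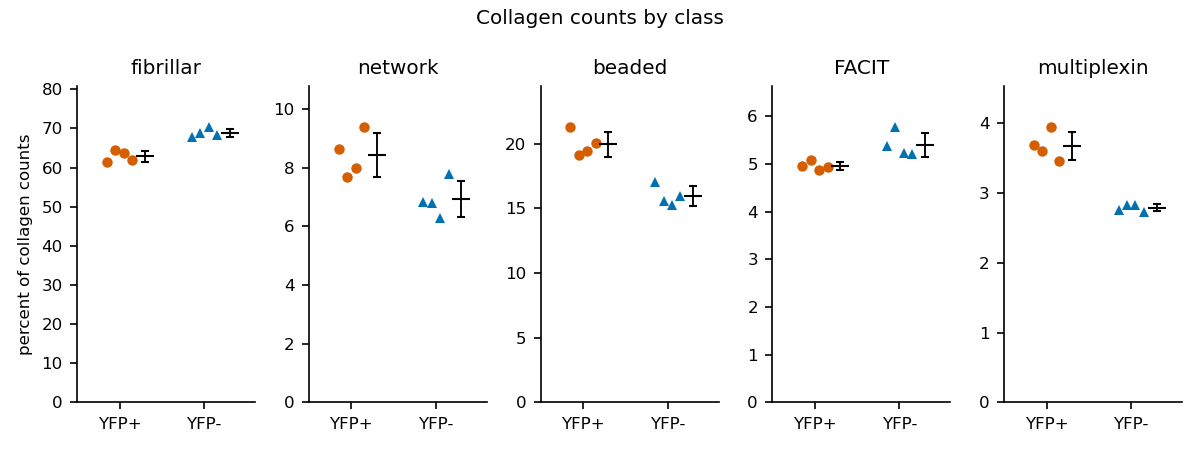
Share of all collagen counts taken by 5 classes in each library (y axes, percent of collagen counts, each panel with its own scale from 0; circles, YFP+; triangles, YFP-; lines, mean and SD of 4 libraries). Fibrillar shares are 61.4 to 64.4% in YFP+ and 67.9 to 70.3% in YFP-, and beaded shares are 19.1 to 21.3% in YFP+ and 15.2 to 17.1% in YFP-.

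Type VI collagen, the beaded class, was the class with the most calls in the higher direction, 3 of its 6 members. A type VI monomer joins the products of Col6a1 and Col6a2 to 1 further chain from Col6a3, Col6a4, Col6a5 or Col6a6. Among the alternatives for that further chain, Col6a5 had 716, 674, 741 and 672 CPM in YFP+ libraries 1 to 4, against 422, 382, 431 and 402 CPM in YFP- libraries 1 to 4. Col6a4 had 174, 135, 165 and 153 CPM in YFP+, against 98.1, 76.6, 91.8 and 86.1 CPM in YFP-. Neither gene overlapped between the groups, and within same-numbered pairs the log2 differences lay between 0.74 and 0.82 for Col6a5 and between 0.819 and 0.845 for Col6a4. Col6a5 rose by a log2 fold change of 0.78 (standard error 0.08, edgeR adjusted p = 1.56e-05) and Col6a4 by 0.83 (standard error 0.10, edgeR adjusted p = 8.07e-05), and both held with any 1 library left out.

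Col6a5 and Col6a4 lie in tandem on the minus strand of chromosome 9, with starts 136140 bp apart, and Col6a6 starts a further 132483 bp beyond Col6a5. Their neighbour Col6a6 did not pass the test. It had 6.44, 7.40, 6.29 and 8.56 CPM in YFP+, against 8.97, 8.04, 10.8 and 8.74 CPM in YFP-, a log2 fold change of -0.35 with overlapping groups (standard error 0.18, edgeR adjusted p = 0.376). Col6a6 was lower in all 4 same-numbered pairs, as were 16.2% of all tested genes. The promoter window of Col6a5, 250 bases before to 50 after its start at chr9:105960594-105960893 on the minus strand (RefSeq, GRCm38.p6), is shown as the member of the tandem group with the smallest adjusted p. Capitals mark matches on either strand to the CCAAT box, to the GC box with the letters GGGCGG or to the TATA box with the letters TATAAA. The printed matches do not overlap one another.
Col6a5: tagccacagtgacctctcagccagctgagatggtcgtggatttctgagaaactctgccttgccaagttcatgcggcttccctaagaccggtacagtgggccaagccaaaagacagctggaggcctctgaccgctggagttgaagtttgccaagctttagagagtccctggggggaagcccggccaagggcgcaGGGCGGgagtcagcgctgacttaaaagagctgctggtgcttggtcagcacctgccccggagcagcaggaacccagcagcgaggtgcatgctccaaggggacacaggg
The window holds 1 GGGCGG match and neither of the other motifs.

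The chains common to all type VI trimers were abundant. Col6a2 had 3970, 3685, 3618 and 3449 CPM in YFP+, against 3230, 2764, 3008 and 2750 CPM in YFP-. Col6a1 had 3283, 2995, 2906 and 2849 CPM in YFP+, against 2768, 2316, 2541 and 2402 CPM in YFP-. For both genes all YFP+ libraries lay above all YFP- libraries. Col6a2 rose by a log2 fold change of 0.33 (standard error 0.08, edgeR adjusted p = 0.038), while Col6a1 had 0.26 (standard error 0.09) with an edgeR adjusted p of 0.108 and of 0.000134 with the replicate block. With no block, Col6a2 lost its call without YFP+ library 1, 2 or 3 or YFP- library 2, 3 or 4 (edgeR adjusted p between 0.0648 and 0.134). It also lost the call without both libraries numbered 2 (0.0951), and Col6a1 gained one without YFP- library 1 (edgeR adjusted p = 0.0467). With the block, the edgeR adjusted p of Col6a2 was 6.2e-06, and 2.21e-06 without both libraries numbered 2. Col6a3, the most widely used of the alternatives, had 4075, 3226, 3482 and 3196 CPM in YFP+, against 4064, 2846, 3437 and 3319 CPM in YFP-, a log2 fold change of 0.03 with overlapping groups (standard error 0.11, edgeR adjusted p = 0.933). Summed per exon length over the 4 alternatives, Col6a3 held 75.6 ± 1.48% in YFP+ and 83.8 ± 1.30% in YFP-, Col6a5 19.4 ± 1.35% in YFP+ and 12.9 ± 1.17% in YFP-, and Col6a4 4.77 ± 0.278% in YFP+, against 3.05 ± 0.104% in YFP- (SD of 4 libraries). This sum was chosen after the values were seen and was not tested.

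Among network collagens the type IV chains went in different directions. Type IV collagen is the sheet-forming collagen of basement membranes. Its genes sit in head-to-head pairs, with starts 21 bp apart for Col4a1 and Col4a2 on chromosome 8, 72 bp apart for Col4a3 and Col4a4 on chromosome 1, and 1309 bp apart for Col4a5 and Col4a6 on chromosome X. The promoters of the Col4a1 and Col4a4 sides are shown because each window also holds the start of the partner gene and the 2 pairs differed in direction. They lie at chr8:11312777-11313076 and chr1:82586800-82587099, both read on the minus strand (RefSeq, GRCm38.p6), with the same motifs in capitals.
Col4a1: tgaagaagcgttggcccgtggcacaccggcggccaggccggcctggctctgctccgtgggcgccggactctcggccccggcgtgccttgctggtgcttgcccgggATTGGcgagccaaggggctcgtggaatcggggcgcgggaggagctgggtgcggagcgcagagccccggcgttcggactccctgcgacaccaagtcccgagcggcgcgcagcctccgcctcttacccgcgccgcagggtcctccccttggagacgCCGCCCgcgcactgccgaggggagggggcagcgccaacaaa
Col4a4: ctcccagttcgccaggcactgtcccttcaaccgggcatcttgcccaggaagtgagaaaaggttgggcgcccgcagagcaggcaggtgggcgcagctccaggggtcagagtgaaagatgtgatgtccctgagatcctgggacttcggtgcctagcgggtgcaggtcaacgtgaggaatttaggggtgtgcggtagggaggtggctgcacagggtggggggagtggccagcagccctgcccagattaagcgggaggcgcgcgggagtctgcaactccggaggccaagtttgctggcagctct
The Col4a1 window holds 1 CCAAT and 1 GGGCGG match, and the Col4a4 window holds none of the 3 motifs. Over 32851 windows of the same length, 37.4% hold CCAAT, 35.7% GGGCGG and 13.6% TATAAA, and of 38 windows matched to 35 collagen genes 34.2% hold CCAAT, 60.5% GGGCGG and 13.2% TATAAA. The median GC content was 59.8% in the collagen windows and 52.7% in all windows.

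Col4a4, whose product joins those of Col4a3 and Col4a5 in a specialised network best known from the kidney glomerulus, had 5.21, 7.57, 5.04 and 7.69 CPM in YFP+, against 12.2, 15.3, 11.4 and 14.0 CPM in YFP-. Its partner Col4a3 had 8.72, 6.74, 4.59 and 9.36 CPM in YFP+, against 10.5, 16.1, 10.1 and 17.4 CPM in YFP-. All YFP+ libraries were below all YFP- libraries for both genes. Col4a4 fell by 1.05 on the log2 scale (standard error 0.19, edgeR adjusted p = 0.00297). Col4a3 had a log2 fold change of -0.88 (standard error 0.24) at an edgeR adjusted p of 0.0503, and of 0.000525 with the replicate block. It was called without YFP+ library 4 or YFP- library 1 or 3 (edgeR adjusted p between 0.0393 and 0.0447). Col4a3 shares 563 bp of exon with a gene on the opposite strand, and the sources used here do not give the strand setting of the counting.

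The Col4a1 and Col4a2 chains, which form the network found in nearly all basement membranes, lay on the other side. Col4a1 had 3032, 2668, 2747 and 2931 CPM in YFP+, against 2471, 2153, 2301 and 2597 CPM in YFP-. Col4a2 had 1775, 1457, 1610 and 1728 CPM in YFP+, against 1539, 1251, 1404 and 1511 CPM in YFP-. The groups did not overlap for Col4a1 and overlapped for Col4a2, and both were higher in all 4 pairs. Their log2 fold changes were 0.26 (standard error 0.09, edgeR adjusted p = 0.120) and 0.20 (standard error 0.09, edgeR adjusted p = 0.299), and both passed with the replicate block (adjusted p = 0.000147 and 0.00186). Col4a5 had 63.9, 89.0, 58.7 and 68.5 CPM in YFP+, against 66.6, 106, 82.5 and 87.1 CPM in YFP-, and its log2 fold change of -0.29 (standard error 0.15) passed only with the block (edgeR adjusted p = 0.408 without it and 0.00681 with it). Col4a6 lay between 13.0 and 29.7 CPM in YFP+ and between 13.8 and 26.4 CPM in YFP-, which gave a log2 fold change of 0.04, with an edgeR adjusted p of 0.971.

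Type VIII collagen, a short-chain network collagen of vessels and of the corneal Descemet membrane, was lower in YFP+ in both of its chains. Col8a1 had 50.5, 52.2, 43.3 and 56.1 CPM in YFP+, against 108, 86.6, 96.3 and 115 CPM in YFP-. Col8a2 had 4.02, 6.25, 4.42 and 3.396 CPM in YFP+, against 8.22, 7.62, 9.71 and 9.47 CPM in YFP-. The groups were apart for both. Col8a1 fell by 1.01 on the log2 scale (standard error 0.10, edgeR adjusted p = 2e-05) and Col8a2 by 0.96 (standard error 0.22, edgeR adjusted p = 0.0162). With no block, Col8a1 kept its call with any 1 library left out, and Col8a2 lost it without YFP+ library 1 or 3 or YFP- library 3 or 4 (edgeR adjusted p between 0.0558 and 0.0631). With the block and all libraries, the edgeR adjusted p of Col8a2 was 0.00208. The Col8a1 promoter at chr16:57754688-57754987 on the minus strand (RefSeq, GRCm38.p6), shown for the most strongly separated network chain, holds 4 GGGCGG matches, all on the other strand as CCGCCC.
Col8a1: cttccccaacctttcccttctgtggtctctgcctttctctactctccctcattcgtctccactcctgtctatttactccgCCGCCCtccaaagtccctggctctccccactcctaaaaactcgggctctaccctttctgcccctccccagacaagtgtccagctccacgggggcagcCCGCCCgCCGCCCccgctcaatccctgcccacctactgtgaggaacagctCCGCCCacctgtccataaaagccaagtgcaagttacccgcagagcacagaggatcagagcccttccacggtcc

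**Figure D4:**
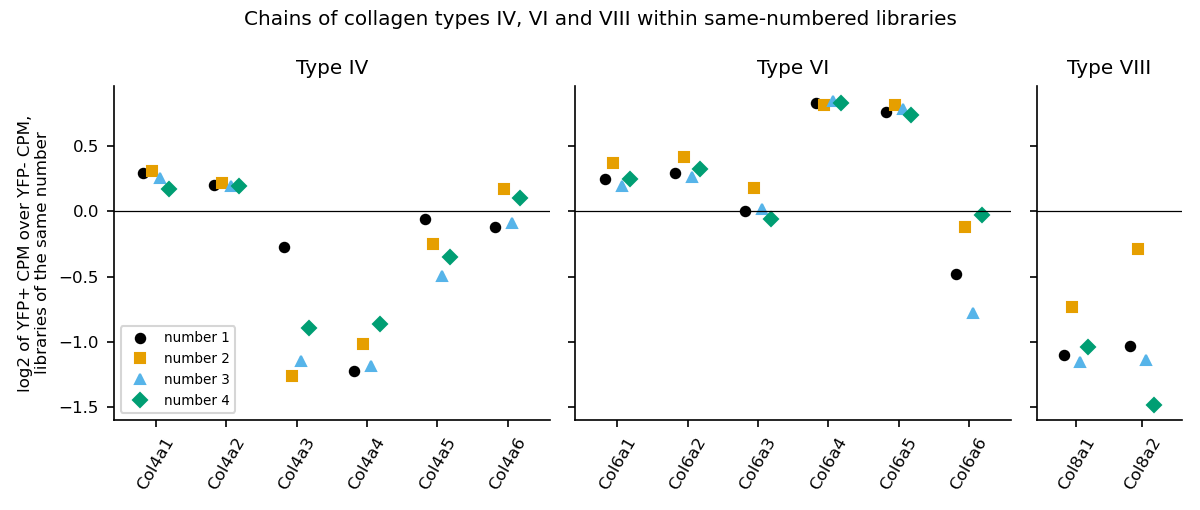
Log2 difference of CPM, YFP+ over YFP-, within each same-numbered pair of libraries for the chains of types IV, VI and VIII (y axis, log2 units; 1 symbol per replicate number; the line marks 0). Col6a4 and Col6a5 lie at 0.742 to 0.845 in every pair, Col4a3, Col4a4, Col4a5, Col6a6, Col8a1 and Col8a2 lie below 0 in every pair, and Col6a3 and Col4a6 have pairs on both sides.

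The major fibrillar collagens were the most abundant members and sat lower in YFP+ by amounts that passed with the block and not in the fit without it. Col3a1, the chain of type III fibrils, had 15822, 16939, 16674 and 14756 CPM in YFP+, against 19032, 17488, 20745 and 18060 CPM in YFP-. Col1a1, which forms type I trimers with Col1a2, had 8876, 8670, 8614 and 7651 CPM in YFP+, against 11316, 8789, 10770 and 9308 CPM in YFP-. Col1a2 had 6316, 6531, 6415 and 5771 CPM in YFP+, against 7574, 6776, 8111 and 7081 CPM in YFP-. All 3 were lower in 4 of 4 pairs, and for Col1a1 YFP+ library 1 lay above YFP- library 2. In pair 2 the log2 differences were only -0.046 for Col3a1, -0.0198 for Col1a1 and -0.0532 for Col1a2. The other pairs had -0.35 to -0.262. The log2 fold changes of Col3a1, Col1a1 and Col1a2 were -0.23 (standard error 0.09), -0.25 (standard error 0.10) and -0.24 (standard error 0.08). Their edgeR adjusted p were 0.178, 0.192 and 0.153 without the block and 0.000868, 0.00111 and 0.00082 with it. With no expression filter and no block, Col1a1 passed as well (edgeR adjusted p = 0.0395). Col3a1 shares 141 bp of exon with a gene on the same strand.

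Type V collagen, which is built into type I fibrils and limits their width, differed little. Col5a1 had a log2 fold change of 0.01 (standard error 0.08, edgeR adjusted p = 0.984) and Col5a2 of -0.10 (standard error 0.08, edgeR adjusted p = 0.587). Col5a3 had 252, 205, 235 and 215 CPM in YFP+, against 280, 246, 258 and 232 CPM in YFP-, and its log2 fold change of -0.16 had an edgeR adjusted p of 0.044 with the block and 0.414 without it. That call was lost in DESeq2 with the block (adjusted p = 0.0541) and with the block when both libraries numbered 2 were left out (log2 fold change -0.12, edgeR adjusted p = 0.211).

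The minor fibrillar chains Col24a1 and Col27a1 lay in the opposite direction to types I and III. Col27a1 had 159, 160, 134 and 119 CPM in YFP+, against 104, 134, 106 and 90.9 CPM in YFP-. Col24a1 had 32.3, 28.2, 24.2 and 33.2 CPM in YFP+, against 18.3, 25.8, 16.8 and 21.6 CPM in YFP-. Both were higher in 4 of 4 pairs although the groups overlapped. The log2 fold changes were 0.40 (standard error 0.12) and 0.51 (standard error 0.14), with edgeR adjusted p of 0.0964 and 0.0548 without the block and of 7.06e-05 and 0.00193 with it. Without both libraries numbered 2, a setting added after seeing the data, both were called with no block (edgeR adjusted p = 0.0275 and 0.0184). Leaving out YFP- library 2 alone also called them (edgeR adjusted p = 0.0113 and 0.0122), as did leaving out YFP+ library 4 for Col27a1 (0.0384) and YFP+ library 3 for Col24a1 (0.0436).

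Col11a1, whose product nucleates thin fibrils in cartilage, was the 1 fibrillar gene called in edgeR with all 8 libraries, the expression filter and no block, on 222 counts in all. It had 0.112, 0.535, 0.328 and 0.208 CPM in YFP+, against 0.442, 4.19, 1.34 and 1.78 CPM in YFP-. The groups overlapped, since YFP+ library 2 lay above YFP- library 1, and YFP- library 2 stood above the others. It fell by 2.704 on the log2 scale (standard error 0.68, edgeR adjusted p = 0.0323), and lost its call without YFP+ library 1, 3 or 4 or YFP- library 2, 3 or 4 (edgeR adjusted p between 0.0551 and 0.176). Without both libraries numbered 2 the edgeR adjusted p was 0.112, and 0.0634 with the block. Its partner Col11a2 averaged 10.1 CPM in YFP+ (SD 2.65) against 11.9 CPM in YFP- (SD 0.614), and its log2 fold change was -0.23, with an edgeR adjusted p of 0.597.

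The FACITs gave 1 call upward and 2 downward among 6 tested genes. Col22a1, known from tissue junctions such as that of muscle and tendon, had 41.8, 38.2, 34.7 and 34.8 CPM in YFP+, against 21.6, 20.9, 14.9 and 20.6 CPM in YFP-. Col20a1, a little studied FACIT, had 32.6, 23.5, 20.3 and 21.1 CPM in YFP+, against 54.7, 52.8, 44.5 and 42.3 CPM in YFP-. Neither overlapped between the groups. Col22a1 rose by a log2 fold change of 0.94 (standard error 0.13, edgeR adjusted p = 0.000306) and Col20a1 fell by 0.99 (standard error 0.14, edgeR adjusted p = 0.000752), and both held with any 1 library left out. Col22a1 shares 16 bp of exon with a gene on the opposite strand, and Col20a1 shares 79 bp with one on the same strand.

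Col14a1, a FACIT on the surface of type I fibrils and the most abundant of its class, had 1948, 1814, 1875 and 1745 CPM in YFP+, against 2507, 2136, 2400 and 2125 CPM in YFP-. The groups did not overlap. Col14a1 fell by 0.31 on the log2 scale (standard error 0.08, edgeR adjusted p = 0.0448, and 1.57e-05 with the block). It kept that call when YFP- library 2 was left out and lost it without any other single library (edgeR adjusted p between 0.0576 and 0.167) or without both libraries numbered 2 (0.0638). Col12a1, also a fibril-surface FACIT, had 505, 641, 473 and 434 CPM in YFP+, against 407, 544, 450 and 373 CPM in YFP-. Its groups overlapped while all 4 pairs were higher, with a log2 fold change of 0.21 (standard error 0.13) and an edgeR adjusted p of 0.509, or 0.0062 with the block. Col9a3 of type IX collagen had 6.78, 5.02, 6.22 and 5.82 CPM in YFP+, against 10.7, 14.2, 5.66 and 9.32 CPM in YFP-. With overlapping groups, its log2 fold change was -0.74 (standard error 0.24, edgeR adjusted p = 0.104, and 0.0378 with the block), and leaving out YFP- library 3 gave an edgeR adjusted p of 0.0215. Its pair log2 differences were -0.65, -1.50, 0.14 and -0.68. The call with the block was lost in DESeq2 with the block (adjusted p = 0.0848) and with the block when both libraries numbered 2 were left out, where the log2 fold change was -0.40 (edgeR adjusted p = 0.327). Without YFP- library 2 alone and with no block it was -0.51 (edgeR adjusted p = 0.319). Col16a1 had a log2 fold change of -0.12 (standard error 0.08, edgeR adjusted p = 0.508).

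Both multiplexins, proteoglycan collagens of the basement membrane zone, lay higher in YFP+. Col18a1, the source of the fragment endostatin, had 833, 806, 944 and 751 CPM in YFP+, against 628, 568, 669 and 605 CPM in YFP-. Col15a1 had 1283, 1211, 1269 and 1027 CPM in YFP+, against 1082, 956, 1095 and 929 CPM in YFP-. The groups were apart for Col18a1 and overlapped for Col15a1. Col18a1 rose by a log2 fold change of 0.43 (standard error 0.09, edgeR adjusted p = 0.00826) and held with any 1 library left out. Col15a1 had 0.24 (standard error 0.09), with an edgeR adjusted p of 0.203 without the block and 0.000821 with it.

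The 4 transmembrane collagens gave 0 calls in edgeR with or without the block and 0 in DESeq2, and 0 of them had an unadjusted p under 0.05. Col23a1, the most abundant, had 43.9, 59.1, 44.3 and 47.5 CPM in YFP+, against 41.0, 63.9, 58.9 and 45.2 CPM in YFP-, with the library numbered 2 highest in each group. Col13a1 averaged 12.8 ± 3.27 CPM in YFP+, against 13.4 ± 3.93 CPM in YFP-. Col17a1, of epithelial hemidesmosomes, and Col25a1, known from neurons, each averaged under 1 CPM in both groups. Col7a1, the chain of the anchoring fibrils under epithelia, had 6.22, 5.26, 5.21 and 4.68 CPM in YFP+, against 7.12, 5.44, 9.46 and 7.43 CPM in YFP- (log2 fold change -0.46, standard error 0.21, edgeR adjusted p = 0.306).

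Col28a1, known in the mouse from the basement membrane of peripheral nerve glia, had 0.857, 0.658, 0.426 and 0.728 CPM in YFP+, against 2.87, 3.35, 1.73 and 2.72 CPM in YFP-. The groups were apart. It fell by 1.995 on the log2 scale (standard error 0.41, edgeR adjusted p = 0.00843) and held with any 1 library left out, on 333 counts in all. Col26a1 averaged 1.55 ± 1.00 CPM in YFP+, against 1.62 ± 0.757 CPM in YFP- (SD).

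Markers of other cells moved with the groups as well. The counts below stand beside 0.917% of all tested genes called higher and 3.34% called lower. With the block these shares were 3.65% and 7.85%. Of 11 enteric glia markers 10 fell in YFP+, and their sum was 9.35 to 12.9 CPM in YFP+ libraries and 127 to 207 CPM in YFP- libraries, highest in YFP- library 2. Cdh19 had 1.71 ± 0.457 CPM in YFP+, against 46.8 ± 10.6 CPM in YFP-, L1cam had 0.767 ± 0.477 CPM in YFP+, against 26.2 ± 9.99 CPM in YFP-, and Foxd3 was at 0 in 2 YFP+ libraries. Of 12 epithelial markers 4 fell, and 6 were called lower with the block, with sums of 21.3 to 28.7 CPM in YFP+ and 42.2 to 83.8 CPM in YFP-. Of 8 smooth muscle markers 2, Lmod1 and Myocd, rose, and 7 were called higher with the replicate block. Their sums were 580, 878, 678 and 362 CPM in YFP+ libraries 1 to 4, against 407, 465, 438 and 187 CPM in YFP- libraries 1 to 4, so the groups overlapped while YFP+ was higher in all 4 pairs. Of 8 mural markers 1, Cspg4, rose and 2 fell, with sums of 1220 to 1440 CPM in YFP+ and 1110 to 1280 CPM in YFP-. Rgs5 made up most of each mural sum. Of 4 markers of interstitial cells of Cajal 1, Gja1, rose, and it made up most of their sums of 247 to 362 CPM in YFP+ and 183 to 223 CPM in YFP-. Their defining markers were near 0, with Kit at 0.487 ± 0.360 CPM in YFP+, against 1.71 ± 1.94 CPM in YFP-, and Ano1 at 1.49 ± 0.568 CPM in YFP+, against 2.19 ± 1.17 CPM in YFP-, and the median log2 fold change of the 4 was -0.12. Of 8 endothelial markers 1, Tek, fell, with 3 called lower under the block, and of 6 neuronal markers 1 fell, with sums of 6.06 to 7.24 CPM in YFP+ and 4.71 to 20.7 CPM in YFP- and Tubb3 at 0 in all 8 libraries. Mesothelial markers summed to 0.557 to 1.42 CPM in YFP+ and 1.81 to 2.68 CPM in YFP-, with Msln and Lrrn4 at 0 in all YFP+ libraries. The part of these cells in the changes of Col28a1, Col11a1, Col20a1, Col8a1, Col4a4 and the other collagen genes was not tested. With both libraries numbered 2 left out, Col28a1 (edgeR adjusted p = 0.0478), Col20a1, Col8a1 and Col4a4 stayed called and Col11a1 (edgeR adjusted p = 0.112) did not. The glial sums of the other libraries were still 9.35 to 12.9 CPM in YFP+ and 127 to 139 CPM in YFP-. Since the glial difference remained and each group lost a library, this setting cannot decide the part of glia in any of these genes.

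Ratios between chains of the same trimer or fibril were compared for 9 pairs by exact two-sided permutation over the 8 libraries, for which the smallest possible p is 0.0286. The Col6a1 to Col6a2 count ratio was 0.827, 0.813, 0.803 and 0.826 in YFP+ libraries, against 0.857, 0.838, 0.845 and 0.873 in YFP- libraries, which do not overlap. The log2 difference was -0.06 (exact permutation p = 0.0286, adjusted over the 9 ratios p = 0.257). The Col6a3 to Col6a1 ratio was 1.24, 1.08, 1.20 and 1.12 in YFP+, against 1.47, 1.23, 1.35 and 1.38 in YFP-, a log2 difference of -0.23 (exact permutation p = 0.0571, adjusted p = 0.257). In every same-numbered pair both ratios were lower in YFP+, and the Col5a1 to Col5a2 ratio was higher in every pair. The other 7 ratios had adjusted exact permutation p of 0.514 or more, and 0 of the 9 passed. At the smallest possible p of 0.0286, the Col6a1 to Col6a2 ratio still had an adjusted p of 0.257. A single separated ratio thus could not pass, and the lack of calls does not show that the ratios are alike. The Col1a1 to Col1a2 ratio was 1.33 to 1.41 in YFP+ and 1.30 to 1.49 in YFP-, and the Col4a1 to Col4a2 ratio 1.70 to 1.83 in YFP+ and 1.61 to 1.72 in YFP-.

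Genes that make, link, bind or cut collagen were counted by list. Without the block, edgeR called 0.917% of all tested genes higher and 3.34% lower. Of 28 genes of collagen biosynthesis and secretion 1 fell, a share near that of all tested genes. Pcolce2, an enhancer of procollagen C-propeptide cleavage, had 37.6, 31.8, 29.3 and 37.5 CPM in YFP+, against 79.2, 54.9, 64.2 and 76.2 CPM in YFP- (log2 fold change -1.01, standard error 0.12, edgeR adjusted p = 0.000134). Of 7 crosslinking genes 1 rose, Pxdn, the peroxidase that links type IV collagen, with 391, 323, 359 and 323 CPM in YFP+, against 296, 263, 278 and 263 CPM in YFP- (log2 fold change 0.34, standard error 0.09, edgeR adjusted p = 0.0306). The groups did not overlap for either gene. With the block 4 of the 7 crosslinking genes were called higher, and 4 of the 28 biosynthesis genes higher and 5 lower, beside 3.65% of all tested genes higher and 7.85% lower.

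Of 10 tested genes of collagen degradation 1 rose and 1 fell, beside 0.917% and 3.34% of all tested genes, and with the block 2 were called higher and 3 lower. Mmp2, a gelatinase that also cuts type IV collagen, had 823, 952, 1080 and 958 CPM in YFP+, against 637, 707, 819 and 744 CPM in YFP-, with all 4 YFP+ libraries above the YFP- libraries (log2 fold change 0.39, standard error 0.10, edgeR adjusted p = 0.0317). Mmp15, a membrane-bound metalloproteinase, had 3.46, 5.18, 3.41 and 2.67 CPM in YFP+, against 10.1, 15.7, 10.7 and 5.95 CPM in YFP- (log2 fold change -1.53, standard error 0.28, edgeR adjusted p = 0.00435). Of 9 receptor and uptake genes 0 were called by edgeR without the block and 0 by DESeq2, 2 had an unadjusted p under 0.05, and 2 were called higher with the block. The most abundant of the 9 was Itgb1, the beta chain of the collagen-binding integrins, with 686 ± 22.5 CPM in YFP+, against 603 ± 31.4 CPM in YFP- (SD; log2 fold change 0.19, edgeR adjusted p = 0.238). Its groups did not overlap. Itgb1 and Itga11 were the 2 called with the block (edgeR adjusted p = 0.0113 and 0.00168). The median log2 fold changes of the 4 lists were 0.01 for biosynthesis, 0.17 for crosslinking, -0.02 for receptors and -0.08 for degradation.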

How the data were processed

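RNA was measured in 8 libraries, made with a stranded low-input total RNA kit, per the labels' protocols. The GRCm38 (mm10) build is named in the submitters' processing notes, along with DESeq2, featureCounts 2.0.1, STAR 2.7.3a and cutadapt 3.4. The sources used here do not name the strand setting of the counting. Per gene, the deposited table lists each library's raw count. Beside these it lists the authors' own comparison, as log2 fold changes with YFP+ on top and adjusted p-values. Its 8 normalised columns were not used.

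Counts were compared in R 4.3.3 with edgeR 4.0.16 (expression filter, TMM scaling, robust quasi-likelihood F test, Benjamini-Hochberg adjustment over all 16354 tested genes, threshold 0.05). CPM were computed from the counts with TMM-scaled totals. Alternatives were relative log expression scaling, no filter, DESeq2 1.42.0, the replicate number as a block, and each library left out with no block. DESeq2 with the block was also fitted. Chosen after seeing the data were the lengths of coding transcripts and the removal of both libraries numbered 2. Simulated counts served to check the test first.

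Over 5258 genes, deviations from the group means correlated at 0.598, 0.637, 0.381 and 0.574 for same-numbered libraries and at -0.422 to 0.0534 for others. The blocked fits and the comparisons within pairs therefore used the replicate number. The fits without the block and the permutation over the 8 libraries did not. The labels do not say what a number stands for. Ratios needed at least 10 counts in each library. Values per library are given for each collagen gene called in either fit and for the most abundant gene of each class. From each list of related genes up to 2 called genes per direction were named, or the most abundant where none was called. Markers of other cells are given by their sums, with some members named after their values were seen. The members, classes and lists were chosen with earlier results of these data known. Exons of 13 of the 44 collagen genes overlap another gene of the GENCODE mouse release 21 annotation, 3 of them in the same orientation. Counting precision is limited for genes under 1 CPM.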

Additional observations from a re-analysis of the deposited data

Results flagged for a closer look

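Of 94 sets of 4 libraries examined, 7 held a library far from the others, where chance gives about 1 in 20, or 4.7 sets. Col22a1 was low in YFP- library 3 at 14.9 CPM, against 20.6 to 21.6 CPM in the other YFP- libraries. The collagen share of all counts was low in YFP+ library 4 at 5.18%, against 5.75 to 5.83% in the other YFP+ libraries. The share of transmembrane collagen genes was high in YFP+ library 2 at 0.00814%. The Col1a1 to Col1a2 ratio was high in library 1 of both groups, at 1.41 in YFP+ and 1.49 in YFP-. The Col3a1 to Col1a1 ratio was low in YFP+ library 1 at 1.78, and in YFP- library 1 it was 1.68. The Col4a1 to Col4a2 ratio was high in YFP+ library 2 at 1.83.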

How the results depend on the processing

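The collagen genes called higher numbered 5, and 9 with no filter, 9 with DESeq2, 12 with the replicate block, 12 with DESeq2 and the block, 12 with the block and both libraries numbered 2 left out, and 4 to 6 with any 1 library left out. Those called lower numbered 7, and 14 with the replicate block, 12 with DESeq2 and the block, 11 with the block and both libraries numbered 2 left out, and 4 to 7 with any 1 library left out, with 4 without YFP+ library 1, YFP+ library 3 or YFP- library 4. Over all genes, 150 were called higher, and 309 with no filter, 272 with DESeq2, 597 with the replicate block, 518 with DESeq2 and the block, 500 with the block and both libraries numbered 2 left out, and 88 to 156 with any 1 left out, with 88 without YFP+ library 3 and 96 without YFP- library 3. Those lower numbered 547, and 934, 822, 1283, 1236 and 1050 under the same 5 settings, and 339 to 521 with any 1 library left out, with 339 without YFP+ library 3. Relative log expression scaling kept all 29 collagen fold changes named by the rule on the same side of the threshold. Among fold changes that were not called, Col6a3 (0.03) turned to -1.36e-05 without both libraries numbered 2, to -0.00142 with the block as well, and ranged from -0.0480 to 0.138 with any 1 library left out, and Col23a1 ranged from -0.204 to 0.0213. With any 1 library left out, the log2 difference of ratios ranged from -0.0280 to 0.0400 for Col1a1 to Col1a2, from -0.0397 to 0.0444 for Col3a1 to Col1a1, from -0.00962 to 0.293 for Col4a3 to Col4a4 and from -0.198 to 0.130 for Col8a1 to Col8a2. The collagen share of counts differed by -0.08 percentage points, by -0.20 without mitochondrially encoded and ribosomal RNA genes, and by -0.20 to 0.07 with any 1 library left out. The cause of these shifts was not tested. The permutation test over pairs cannot go below 0.125, so it could not separate any ratio. Counts were few for the 5 untested genes and, among tested ones, for Col17a1 (148 in all), Col25a1 (154), Col11a1 (222), Col26a1 (323) and Col28a1 (333).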
